A study of Mus musculus with 19 samples.

Results

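The 8 genes described here carry out MHC class I antigen presentation: H2-K1, H2-D1, H2-T23, B2m, Tap1, Tap2, Tapbp and Nlrc5. They were read by symbol from a table of 24237 genes measured by RNA-seq in epididymal white adipose tissue (eWAT), the visceral fat pad beside the mouse epididymis. All 8 passed the filter on low values, which kept 8336 genes. Male C57BL6/J mice, aged 9 to 10 weeks when allocated to diets, were fed for 17 weeks. The low-fat diet (LFD) gave 10% of its energy as fat and the high-fat diet (HFD) 60%, from palm oil, and each was made with 0.21% MgO by weight (NormMg) or 0.03% (LowMg). The 4 resulting groups are NormMg-LFD with 4 mice and LowMg-LFD, NormMg-HFD and LowMg-HFD with 5 mice each, and every mouse gave 1 library. No group carried a transgene or a drug, and whole tissue was used, so each value is a mean over adipocytes and every other cell of the pad.

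Class I molecules display short peptides from inside the cell to CD8+ T cells. The heavy chain (here H2-K1 and H2-D1, which are classical, and H2-T23, the non-classical Qa-1 chain read by natural killer cell receptors) folds with the invariant light chain β2-microglobulin (B2m). Peptides cut by the proteasome are pumped into the endoplasmic reticulum by a transporter made of Tap1 and Tap2, and tapasin (Tapbp) holds the empty heavy chain next to it until a peptide is bound. Nlrc5 is the transactivator of the class I promoters. Nearly all nucleated cells use this route, and interferons raise it.

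Sequencing depth was even, at 12986441 to 13027028 reads per mouse, of which 86.1% to 90.4% mapped. Expression was given as FPKM (fragments per kilobase of transcript, scaled to a common number of mapped fragments), which keeps no read count per gene, so no counting error could be attached to single values. The 10 adipocyte markers all passed the filter, with summed levels of 11832 to 21277 FPKM. The 15 genes of the exocrine pancreas summed to 1992 FPKM in NormMg-LFD replicate 3 and to 13.2 to 62.2 in the other mice. The 7 epididymis genes summed to 118 FPKM in LowMg-LFD replicate 4 and to 1.33 or less elsewhere. The study left out a LowMg-HFD mouse for pancreatic tissue, which the labels do not name; all mice were kept here. The same genes of the 8 were called without NormMg-LFD replicate 3 and without LowMg-LFD replicate 4 in every comparison. The counts of the pathway lists in NormMg-HFD vs NormMg-LFD, LowMg-HFD vs NormMg-HFD and LowMg-HFD vs LowMg-LFD that differ without either mouse are given beside them, and marker counts were not refitted.

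In GRCm38 (GENCODE M21), 6 are on chromosome 17: Tapbp at chr17:33915899-33929292, H2-K1 at chr17:33996017-34000347 on the minus strand, Tap1 at chr17:34187553-34197225, Tap2 at chr17:34203527-34216321, H2-D1 at chr17:35262730-35267499, and H2-T23 at chr17:36029773-36032855 on the minus strand. B2m lies at chr2:122147686-122153083 and Nlrc5 at chr8:94434356-94527272. The table pairs the symbols with the identifiers ENSMUSG00000061232.15 (H2-K1), ENSMUSG00000073411.11 (H2-D1), ENSMUSG00000067212.8 (H2-T23), ENSMUSG00000060802.8 (B2m), ENSMUSG00000037321.17 (Tap1), ENSMUSG00000024339.12 (Tap2), ENSMUSG00000024308.14 (Tapbp) and ENSMUSG00000074151.13 (Nlrc5). Some reads could not be told apart between genes. Of the 50-base words in the transcripts, 23.2% for Tapbp, 14.5% for H2-T23, 12.8% for H2-D1, 11.6% for Tap2, 9.63% for H2-K1, 3.33% for Tap1 and 0.338% for Nlrc5 also occur in another gene, and H2-K1 shares 141 words with H2-D1. None of the B2m words is shared. The exons of Tapbp overlap those of Zbtb22 on the same strand and of Gm19412 on the other, those of Tap1 overlap Psmb9, those of Tap2 overlap Gm15821 and Gm20496, and those of Nlrc5 overlap 9330175E14Rik. Since the strand of the libraries is not given in the sources used here, the values of Tapbp, Tap1, Tap2 and Nlrc5 are uncertain to that extent, as are those of the 3 heavy chains.

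The promoters of the heavy chains, B2m and Tapbp are shown because these 5 genes were higher together in NormMg-HFD than in NormMg-LFD. Each run is the 250 bases before the RefSeq start site in GRCm38.p6, written 5′ to 3′ on the strand of the gene, with capitals on the motifs searched.
H2-K1 (chr17:34000348-34000597, minus strand): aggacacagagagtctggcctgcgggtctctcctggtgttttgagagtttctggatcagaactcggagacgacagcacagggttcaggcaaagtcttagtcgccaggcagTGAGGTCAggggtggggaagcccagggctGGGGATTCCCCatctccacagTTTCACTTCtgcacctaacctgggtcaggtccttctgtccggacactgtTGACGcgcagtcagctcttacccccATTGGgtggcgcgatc
H2-D1 (chr17:35262844-35263093, plus strand): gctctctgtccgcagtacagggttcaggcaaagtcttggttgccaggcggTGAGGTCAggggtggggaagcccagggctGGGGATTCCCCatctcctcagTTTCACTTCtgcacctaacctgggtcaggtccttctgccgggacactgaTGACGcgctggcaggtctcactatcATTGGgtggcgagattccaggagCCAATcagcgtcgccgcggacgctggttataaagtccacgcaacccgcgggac
H2-T23 (chr17:36032702-36032951, minus strand): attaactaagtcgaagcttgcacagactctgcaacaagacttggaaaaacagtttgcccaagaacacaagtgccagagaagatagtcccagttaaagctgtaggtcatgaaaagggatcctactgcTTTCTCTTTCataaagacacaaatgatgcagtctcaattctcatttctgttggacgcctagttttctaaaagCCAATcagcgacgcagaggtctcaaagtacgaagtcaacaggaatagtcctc
B2m (chr2:122147437-122147686, plus strand): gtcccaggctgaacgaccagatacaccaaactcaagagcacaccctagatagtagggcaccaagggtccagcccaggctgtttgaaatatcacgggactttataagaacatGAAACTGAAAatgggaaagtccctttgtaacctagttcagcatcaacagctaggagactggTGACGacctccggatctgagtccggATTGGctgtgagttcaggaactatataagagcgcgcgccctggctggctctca
Tapbp (chr17:33919228-33919477, plus strand): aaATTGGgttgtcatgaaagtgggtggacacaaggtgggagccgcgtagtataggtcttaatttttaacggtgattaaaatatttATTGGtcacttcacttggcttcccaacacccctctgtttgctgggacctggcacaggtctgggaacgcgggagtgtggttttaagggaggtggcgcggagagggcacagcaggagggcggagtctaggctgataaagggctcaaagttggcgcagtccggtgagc

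Both strands were searched for 6 motifs in the windows of the 6 genes with an entry (Tap2 and Nlrc5 had none), and each share is given over 27025 RefSeq promoters of the same length. An interferon response element written GAANNGAAA was found in H2-K1, 90 to 82 bases before the start, and in H2-D1, 150 to 142 bases before it, and is held by 6.34% of all promoters. The classical form GAAANNGAAA, added after the sequences had been seen, was found in B2m (139 to 130 bases before the start) and H2-T23 (124 to 115 bases), and is held by 3.04%. The NF-kB site GGGGANTCCC was present in H2-K1 and H2-D1, with overlapping matches on both strands, against 0.281% of all promoters. The letters TGANGTCA, searched as a cyclic AMP type X2 box, were present in the same pair, where they read TGAGGTCA, and in 7.59% of all. The shorter TGACG, also added later, is not part of these matches, which begin 140 bases before the start in H2-K1 and 200 in H2-D1. TGACG began 41 and 101 bases before it. It was in H2-K1, H2-D1, B2m and Tap1 and in 17.9% of all. The Y box CCAAT was in all 6 windows and in 34.5% of all, and it was the only motif of the 6 found in Tapbp. The Tapbp and H2-D1 windows lie inside the GENCODE spans of their genes, and that of H2-T23 overlaps its span. The windows of H2-K1 and H2-D1 were 91.6% identical over 190 aligned bases. These are matches of letters, and binding was not measured.

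Levels differed widely between the genes. Averaged over all 19 mice, B2m had the highest level of the 8 at 1713 FPKM, rank 30 of 24237 genes, followed by H2-D1 at 752 FPKM (rank 62) and H2-K1 at 719 FPKM (rank 70). Tapbp was at 124 FPKM (rank 571) and H2-T23 at 66.5 FPKM (rank 1222). Tap2 at 37.7 FPKM, Tap1 at 17.9 FPKM and Nlrc5 at 12.96 FPKM were the lowest. In each gene's order of the 4 group means, neighbouring groups overlapped.

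**Figure D1:**
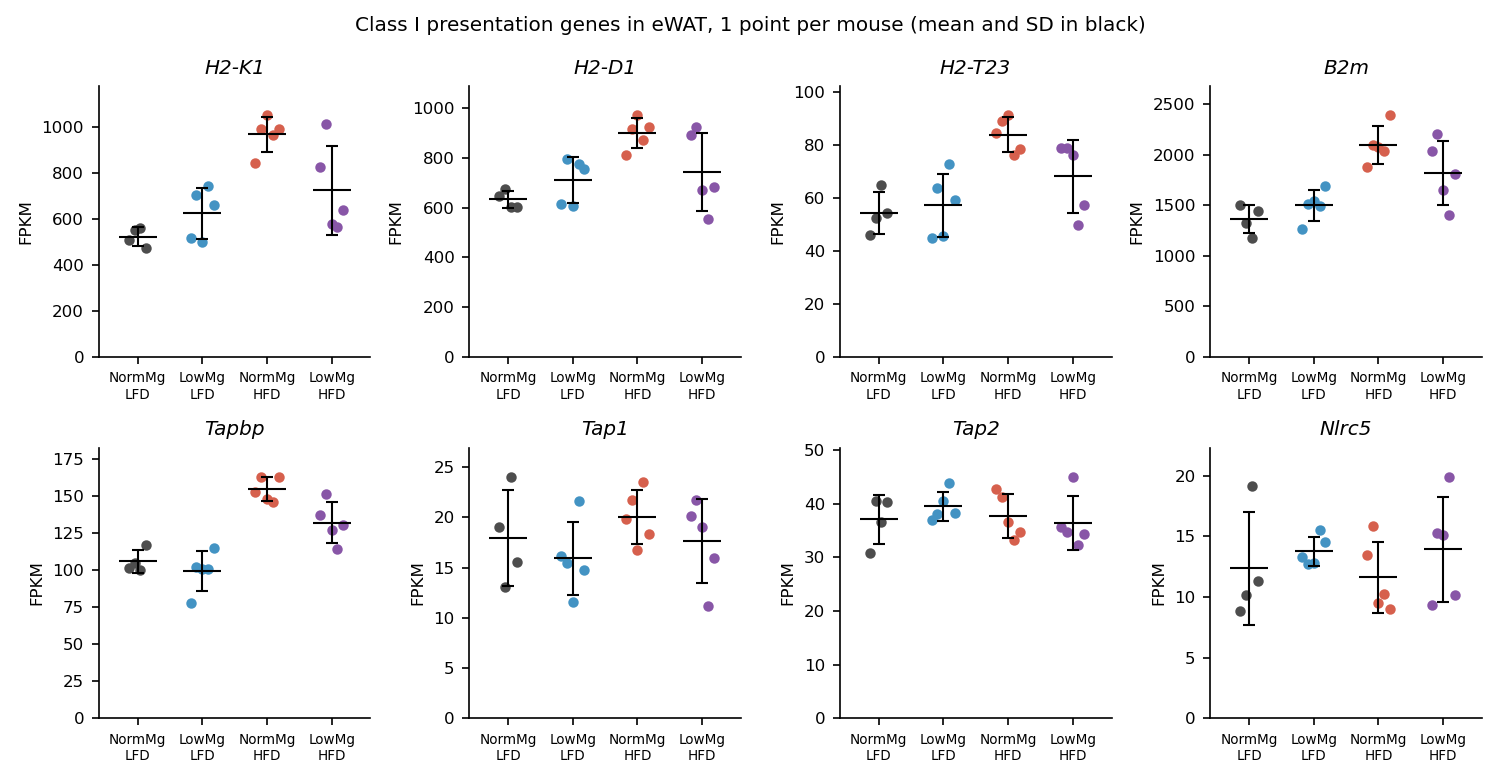
FPKM of the 8 genes by diet group, 1 point per mouse, with the group mean and SD in black and every axis starting at 0. All 5 NormMg-HFD mice lie above all 4 NormMg-LFD mice for H2-K1, H2-D1, H2-T23, B2m and Tapbp, and the groups overlap for Tap1, Tap2 and Nlrc5.

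H2-K1 was at 508, 549.9, 561 and 472 FPKM in the NormMg-LFD mice and at 842, 989.9, 1051, 962 and 989 FPKM in the NormMg-HFD mice. The LowMg-LFD mice had 517, 703, 497, 743 and 659 FPKM and the LowMg-HFD mice 825, 1013, 577, 566 and 636 FPKM. Every NormMg-HFD mouse was therefore above every mouse on either LFD, while of the LowMg-HFD mice 1 was within the NormMg-HFD range, 1 was just below it and 3 were within the LowMg-LFD range. The group means were 523 ± 40.8 FPKM (SD, n = 4) in NormMg-LFD, 624 ± 111 (n = 5) in LowMg-LFD, 967 ± 76.9 (n = 5) in NormMg-HFD and 724 ± 192 (n = 5) in LowMg-HFD.

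H2-D1, the other classical heavy chain, was at 647, 676, 603 and 603 FPKM in NormMg-LFD and at 812, 915, 972, 873 and 924 FPKM in NormMg-HFD. It was at 614, 796, 604, 775 and 756 FPKM in LowMg-LFD and at 890.2, 922, 669, 554 and 684 FPKM in LowMg-HFD. LowMg-HFD replicates 1 and 2 were again the high pair, and replicate 4 was below every NormMg-LFD mouse.

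H2-T23 was at 46.0, 52.4, 64.8 and 54.3 FPKM in NormMg-LFD and at 84.4, 89.2, 91.4, 76.3 and 78.4 FPKM in NormMg-HFD. It was at 44.9, 63.6, 45.6, 72.7 and 59.2 FPKM in LowMg-LFD and at 78.8, 79.1, 76.1, 49.8 and 57.2 FPKM in LowMg-HFD. Here 3 LowMg-HFD mice reached or nearly reached the NormMg-HFD range and 2 lay within that of the LFD groups.

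B2m was at 1501, 1329.7, 1181 and 1443 FPKM in NormMg-LFD and at 1874, 2098, 2075, 2037 and 2394 FPKM in NormMg-HFD. It was at 1266, 1509, 1541, 1496 and 1696 FPKM in LowMg-LFD and at 2036, 2209, 1653, 1401 and 1809 FPKM in LowMg-HFD. LowMg-HFD replicates 1 and 2 sat inside the NormMg-HFD range and the other 3 below it.

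Tapbp was at 102, 105, 100.3 and 117 FPKM in NormMg-LFD and at 153, 163, 148, 146 and 163 FPKM in NormMg-HFD. It was at 78.3, 102, 101, 101 and 115 FPKM in LowMg-LFD and at 138, 152, 127, 114 and 131 FPKM in LowMg-HFD. Tapasin had the least mixed pattern across diets, since 4 of 5 LowMg-HFD mice were above every LowMg-LFD mouse and 4 of 5 were below every NormMg-HFD mouse.

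The transporter subunits and the transactivator did not separate by diet. Tap1 ranged from 11.2 to 24.1 FPKM over all mice, with means of 17.9 ± 4.76 FPKM (SD, n = 4) in NormMg-LFD, 15.9 ± 3.64 (n = 5) in LowMg-LFD, 20.03 ± 2.70 (n = 5) in NormMg-HFD and 17.6 ± 4.17 (n = 5) in LowMg-HFD. Tap2 ranged from 30.8 to 45.04 FPKM, with group means from 36.4 to 39.5 FPKM. Nlrc5 ranged from 8.82 to 19.9 FPKM, with means of 12.4 ± 4.65 FPKM (n = 4) in NormMg-LFD, 13.8 ± 1.203 (n = 5) in LowMg-LFD, 11.6 ± 2.94 (n = 5) in NormMg-HFD and 14.0 ± 4.33 (n = 5) in LowMg-HFD. All groups overlapped for each of these 3 genes.

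The first question was what the HFD did at normal Mg2+ content. Relative to NormMg-LFD, the NormMg-HFD group had higher levels of all 3 heavy chains, of B2m and of Tapbp, by 1.42 to 1.85 times in group means, whereas Tap1, Tap2 and Nlrc5 did not pass the test. Of the 8 genes 5 passed upwards and none downwards (limma on log2(FPKM + 1) over all tested genes, adjusted p under 0.05), and of all genes tested 24.6% passed upwards and 12.8% downwards in this comparison. The same 5 genes had no overlap between the groups, as did 21.5% of all genes in this direction. The median log2 fold change of the 8 was 0.52, compared with 0.07 for all genes. A log2 fold change here is on the log2(FPKM + 1) scale.

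H2-K1 had the largest difference of the 8, with a log2 fold change of 0.89 ± 0.16 (SE; 95% CI 0.56 to 1.21; limma adjusted p = 0.000193). For B2m it was 0.62 ± 0.12 (95% CI 0.36 to 0.88; limma adjusted p = 0.000626) and for Tapbp 0.54 ± 0.10 (0.33 to 0.75; adjusted p = 0.000271). For H2-T23 it was 0.62 ± 0.15 (0.30 to 0.95; limma adjusted p = 0.00367) and for H2-D1 0.51 ± 0.13 (0.23 to 0.78; adjusted p = 0.00475). Tap1 gave 0.18 (95% CI -0.23 to 0.58; limma adjusted p = 0.501), Tap2 0.03 (-0.20 to 0.25; adjusted p = 0.871) and Nlrc5 -0.06 (-0.51 to 0.40; adjusted p = 0.861). The 5 calls were kept under all 28 other settings tried, among them those without NormMg-LFD replicate 3 or LowMg-LFD replicate 4. On quantile normalisation H2-D1 was at 0.30 (limma adjusted p = 0.0489) and Tapbp at 0.35 (adjusted p = 0.00697). Median centring moved the median of all genes by -0.10 and quantile normalisation by -0.12. They turned a split of 2048 genes higher and 1066 lower into 1580 and 1572, and into 1499 and 1696. The members' median stood 0.45 above that of all genes in the main fit and after centring, and 0.37 above it after quantile normalisation.

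**Figure D2:**
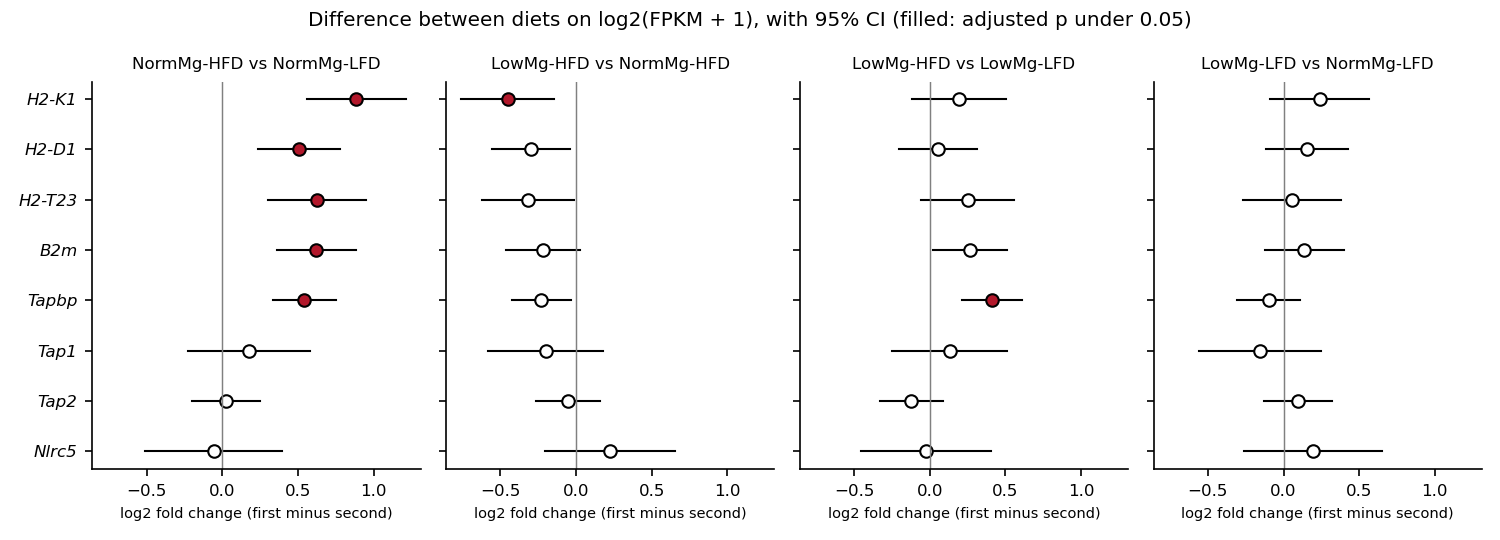
Log2 fold change of each gene with its 95% CI in 4 comparisons of diets, as the group named first minus the other, on log2(FPKM + 1). Filled points passed adjusted p under 0.05: 5 genes in NormMg-HFD vs NormMg-LFD, H2-K1 in LowMg-HFD vs NormMg-HFD, Tapbp in LowMg-HFD vs LowMg-LFD and none in LowMg-LFD vs NormMg-LFD.

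The next question was whether low dietary Mg2+ altered these levels under the HFD. H2-K1 was lower in the LowMg-HFD mice, at 0.748 times the NormMg-HFD mean, and it was the only gene of the 8 to pass the test. Its log2 fold change was -0.45 ± 0.15 (95% CI -0.76 to -0.14; limma adjusted p = 0.0395), with 4 of 5 LowMg-HFD mice below all NormMg-HFD mice. Of all genes tested, 12.9% were called lower in this comparison and 5.58% higher. The call for H2-K1 was lost in 13 of 28 other settings, with adjusted p from 0.00489 to 0.115 over all of them. It was lost on leaving out any of LowMg-HFD replicates 3, 4 and 5 or NormMg-HFD replicates 2, 3, 4 and 5, on median centring (adjusted p = 0.0606) and on quantile normalisation (adjusted p = 0.104). It held without NormMg-LFD replicate 3 (limma adjusted p = 0.0476) and without LowMg-LFD replicate 4 (adjusted p = 0.0364).

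Of the other 7 genes 6 had values below 0 in the same comparison without passing. These were H2-T23 at -0.32 (95% CI -0.62 to -0.01; limma adjusted p = 0.14), H2-D1 at -0.30 (-0.55 to -0.04; adjusted p = 0.0985), Tapbp at -0.23 (-0.42 to -0.03; adjusted p = 0.0943), B2m at -0.22 (-0.46 to 0.03; adjusted p = 0.213), Tap1 at -0.20 (-0.58 to 0.18; adjusted p = 0.475) and Tap2 at -0.05 (-0.26 to 0.16; adjusted p = 0.763). Nlrc5 was at 0.23 (95% CI -0.20 to 0.66; limma adjusted p = 0.476). LowMg-HFD replicates 1 and 2 had the highest H2-K1, H2-D1, H2-T23, B2m and Tapbp levels of their group. Without replicate 2, H2-D1, H2-K1 and Tapbp were called lower, 3 of 8 genes, and without replicate 1, H2-D1 and H2-K1 were. Leaving out LowMg-LFD replicate 1 gave H2-K1 and Tapbp. The members' median was -0.22 and that of all genes -0.04. Median centring changed the split of all called genes from 465 higher and 1077 lower to 649 and 849, and quantile normalisation to 786 and 878.

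At low Mg2+, the HFD was compared with the LFD. Tapbp rose 1.33 times, with a log2 fold change of 0.41 ± 0.09 (95% CI 0.22 to 0.61; limma adjusted p = 0.00608), and this call was kept in all 28 other settings. It was the only call among the 8, in a comparison in which 12.4% of all genes were called higher and 3.51% lower. B2m was at 0.27 ± 0.12 (95% CI 0.02 to 0.51; limma adjusted p = 0.133), and it was called without LowMg-HFD replicate 4 (log2 fold change 0.36, adjusted p = 0.0325). H2-T23 at 0.25 (adjusted p = 0.266, limma), H2-K1 at 0.19 (adjusted p = 0.407) and H2-D1 at 0.05 (adjusted p = 0.816) did not pass. The median of all genes moved by -0.11 on centring and by -0.12 on quantile normalisation, where the all-gene split of 1036 higher and 293 lower became 593 and 531, and 549 and 530.

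Against NormMg-LFD, LowMg-HFD had 3 of the 8 genes and 1815 of all 8336 at an unadjusted p under 0.05 (limma). None of the 8 was called, where 5.29% of all genes were called higher. The nearest were B2m at 0.41 (95% CI 0.14 to 0.67; limma adjusted p = 0.0543), Tapbp at 0.31 (0.11 to 0.52; adjusted p = 0.0615) and H2-K1 at 0.43 (0.11 to 0.76; adjusted p = 0.101). All 5 LowMg-HFD mice had more H2-K1 than all 4 NormMg-LFD mice, a separation in this direction shown by 6.08% of all genes. B2m, H2-K1 and Tapbp were all called higher without LowMg-HFD replicate 4. B2m and Tapbp were called without LowMg-LFD replicate 1, and B2m alone without LowMg-HFD replicate 3. The all-gene split of 441 higher and 137 lower became 351 and 180 on median centring, and 311 and 216 on quantile normalisation. This comparison shares its LowMg-HFD mice with those described before it and its NormMg-LFD mice with the first.

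Low Mg2+ under the LFD gave no call. The 8 log2 fold changes of LowMg-LFD relative to NormMg-LFD lay between -0.15 for Tap1 and 0.24 for H2-K1 (95% CI -0.09 to 0.57; limma adjusted p = 0.823). No gene of 8336 passed in this comparison (0% called) by limma, and 547 had an unadjusted p under 0.05, none of them among the 8. The interaction of Mg2+ and fat, which asks whether the effect of the HFD differed between Mg2+ contents, was not called by limma for any of the 8. Of all genes 1.25% were called. At an unadjusted p under 0.05 were 2 of the 8 and 1698 of all 8336 genes. The interaction was -0.69 ± 0.22 for H2-K1 (limma adjusted p = 0.084), -0.45 ± 0.18 for H2-D1 (adjusted p = 0.162), -0.37 ± 0.21 for H2-T23 (adjusted p = 0.337) and -0.35 ± 0.17 for B2m (adjusted p = 0.25). Without LowMg-HFD replicate 2 the value for H2-K1 was -0.82 and passed (limma adjusted p = 0.0243).

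The other genes of the class I route were read from lists of peptide supply, peptide loading, heavy chains and their regulators. In NormMg-HFD vs NormMg-LFD, 8 of 10 loading chaperones rose and none fell, where 24.6% of all genes were higher. Calr, the lectin chaperone calreticulin of the loading complex, rose by 0.93 ± 0.11 on the log2 scale (limma adjusted p = 4.79e-06), from a mean of 184 ± 15.9 FPKM (SD, n = 4) to 353 ± 38.1 (n = 5). Pdia3, the oxidoreductase partnered with tapasin, rose by 0.71, Hspa5 (BiP) by 0.83 and Pdia6, another oxidoreductase, by 0.52. These genes also fold many other secreted and membrane proteins. Tapbpl, the tapasin-related peptide editor, was at -0.24 (limma adjusted p = 0.196). The list median was 0.47, and 6 to 8 of the list were called higher across the other settings, with 7 without NormMg-LFD replicate 3. On median centring and on quantile normalisation it had 6 higher and 1 lower.

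In peptide supply 4 of 13 genes were higher and none was lower, where 24.6% of all genes were higher. Without NormMg-LFD replicate 3 the count was 3, and on quantile normalisation it was 2, with 1 lower. These were the immunoproteasome subunits Psmb8 and Psmb10, both at 0.55, the proteasome activator subunit Psme2 at 0.40 and the aminopeptidase-like hydrolase Blmh at 0.39. Psmb9, the third immunoproteasome subunit, whose exons overlap those of Tap1, was at 0.19 (limma adjusted p = 0.453). Among 10 further heavy chain and class I-like genes tested, 2 were higher and 1 was lower, against 24.6% and 12.8% of all genes. H2-Q4 rose by 0.59 and Hfe, the class I-like regulator of iron uptake, by 0.65, and Mr1, which presents vitamin B metabolites, fell by 0.60. On leaving out 1 mouse this list had 1 to 3 genes higher and 1 to 2 lower. It had 1 higher and 2 lower on median centring, and 1 higher and 4 lower on quantile normalisation. H2-Q4 belongs to a family of close copies, so its value is uncertain.

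Among interferon signalling genes 7 of 13 were higher in NormMg-HFD than in NormMg-LFD and none was lower, with 6 to 7 across the other settings and 6 without NormMg-LFD replicate 3. The receptor chains Ifngr2, Ifnar2 and Ifnar1 rose by 1.13, 0.75 and 0.61, and Irf8, a transcription factor of the myeloid lineage, rose by 2.03 ± 0.22 (limma adjusted p = 1.96e-06). Irf1, which binds the class I interferon element, was at 0.10 (adjusted p = 0.589). Interferon-γ itself (Ifng) was below the filter, with a highest mouse of 0.58 FPKM. Of 16 interferon-stimulated genes tested, 3 were higher (Bst2 at 0.60, Psmb8 at 0.55 and Gbp2 at 0.38) and 1 was lower (Gbp4 at -0.61). Over all genes the shares were 24.6% higher and 12.8% lower. Without NormMg-HFD replicate 3, NormMg-LFD replicate 2 or NormMg-LFD replicate 4 this list had 2 higher and 0 lower. It had 2 higher and 2 lower without NormMg-LFD replicate 3, without NormMg-HFD replicate 2, on median centring and on quantile normalisation, and 3 higher and 2 lower without LowMg-HFD replicate 4. Of 10 factors that bind class I promoters, Nfya, a subunit of the Y box factor, rose by 0.88 (limma adjusted p = 0.000998). No other gene of the list was called in this fit, and 1 was called lower on median centring and on quantile normalisation. Without NormMg-HFD replicate 1 the list had 2 higher and 1 lower, and without NormMg-HFD replicate 5 or NormMg-LFD replicate 4 it had 2 higher.

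For LowMg-HFD relative to NormMg-HFD, 4 of 10 loading chaperones were lower and none was higher, where 12.9% of all genes were lower and 5.58% higher. Calr fell by 0.58 ± 0.11 (limma adjusted p = 0.00255), Hspa5 by 0.54, Pdia3 by 0.49 and Uggt1, the glucosyltransferase that sends misfolded glycoproteins back to calreticulin, by 0.40. The count lay between 3 and 5 across the other settings, and was 5 without LowMg-LFD replicate 4. Of the 13 interferon signalling genes 5 were lower, again beside 12.9% of all genes, with log2 fold changes of -1.13 for Irf8, -0.64 for Ifngr2, -0.41 for Ifnar1, -0.33 for Irf9 and -0.26 for Jak1. This count fell to 2 on leaving out LowMg-HFD replicate 3 or 4 or NormMg-HFD replicate 1, 3 or 4, and to 3 on leaving out LowMg-HFD replicate 5 or NormMg-HFD replicate 2 and on median centring. No gene of peptide supply was called by limma in this comparison. An unadjusted p under 0.05 was reached by 3 of its 13 genes, beside 2702 of all 8336 genes. The interferon-stimulated genes also had no call by limma, with 4 of 16 at an unadjusted p under 0.05, beside the same 2702. Of the list, 2 were called higher without LowMg-HFD replicate 4 or NormMg-HFD replicate 2 and on quantile normalisation, 1 was called higher on median centring, and 1 was called lower without LowMg-HFD replicate 2 or NormMg-HFD replicate 4. In peptide supply, 1 gene was called lower without NormMg-LFD replicate 3, LowMg-LFD replicate 2, LowMg-HFD replicate 2 or 4, or NormMg-HFD replicate 1. Cd1d1, which presents lipids to natural killer T cells, was higher by 0.59 (limma adjusted p = 0.048). That call was lost without NormMg-LFD replicate 3 or 5, LowMg-LFD replicate 1 or 2, LowMg-HFD replicate 1, 3 or 5, or any of NormMg-HFD replicates 1 to 4. Nfya fell by 0.54 (limma adjusted p = 0.0402), a call lost without LowMg-HFD replicate 3, 4 or 5 or any of NormMg-HFD replicates 1 to 4. The interaction was called for Calr, at -0.68 (limma adjusted p = 0.046). That call was lost without LowMg-HFD replicate 3, 4 or 5, LowMg-LFD replicate 2, 4 or 5, NormMg-HFD replicate 1, 3 or 4, or NormMg-LFD replicate 2, 3 or 5. With replicate number as a block the Calr interaction was not called either.

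The same lists were read for the HFD against the LFD at low Mg2+, where 12.4% of all genes were higher and 3.51% lower. Of the interferon signalling genes 4 of 13 were higher, namely Irf8 by 0.91, Ifngr2 by 0.65, Ifnar2 by 0.42 and Jak1 by 0.26. This count fell to 1 without LowMg-HFD replicate 1 or 2, on median centring and on quantile normalisation, to 2 without LowMg-LFD replicate 1 or 5, and to 3 without NormMg-LFD replicate 3. None of the 10 loading chaperones was called by limma, with Calr at 0.26 (adjusted p = 0.117), and 1 was called higher without LowMg-LFD replicate 4. An unadjusted p under 0.05 was reached by 3 of the 10, beside 2465 of all 8336 genes. H2-Q10, a secreted class I molecule made mainly in liver, was lower, at -1.58 (limma adjusted p = 0.0017), and Psmb10 was higher, at 0.39 (adjusted p = 0.0499). The call for Psmb10 was lost on leaving out any LowMg-LFD mouse, LowMg-HFD replicate 1 or 2, NormMg-HFD replicate 2, 4 or 5, or NormMg-LFD replicate 3 or 4.

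**Figure D3:**
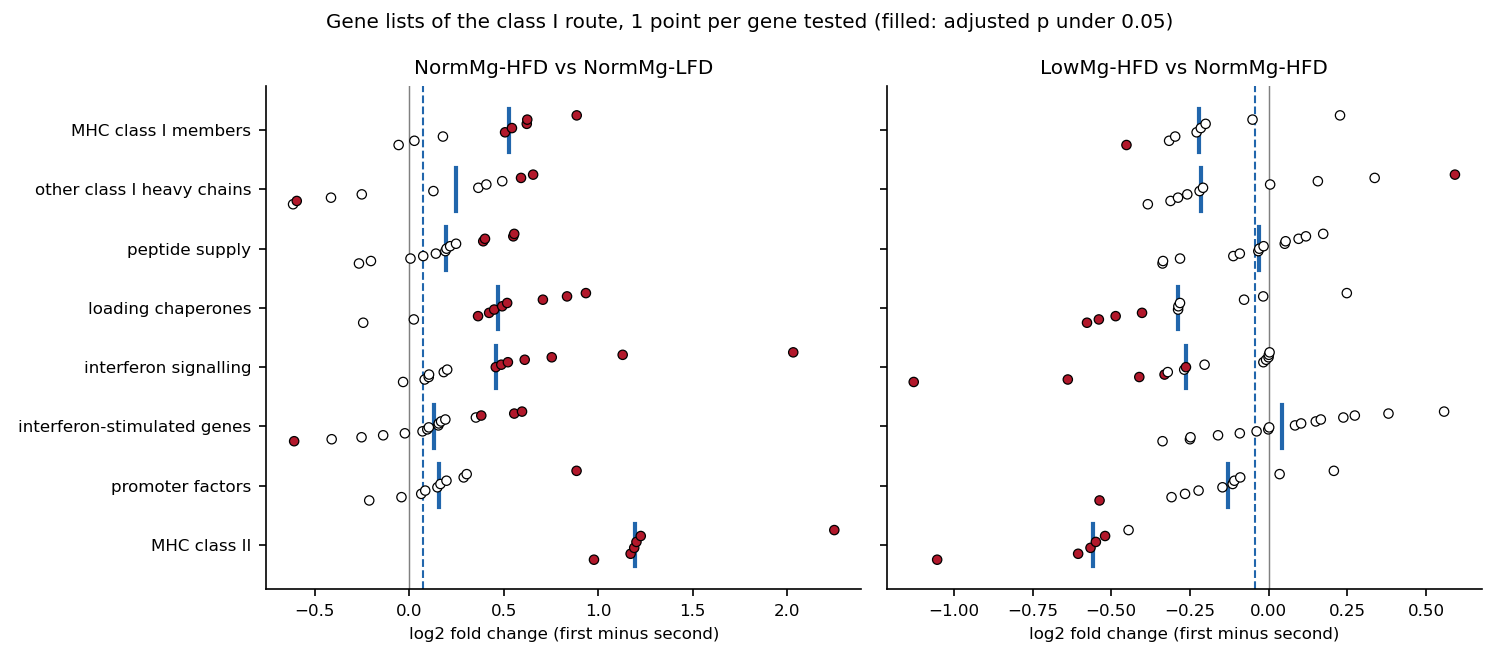
Log2 fold change of each tested gene in 8 lists, for NormMg-HFD vs NormMg-LFD (left) and LowMg-HFD vs NormMg-HFD (right), with filled points at adjusted p under 0.05, blue bars at list medians and a dashed line at the median of all genes. In the left panel 8 loading chaperones, 7 interferon signalling genes and 6 class II genes were higher, and in the right panel 4, 5 and 5 of them were lower.

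The 6 class II genes tested, which present peptides of taken-up antigen to CD4+ T cells, were all higher in NormMg-HFD than in NormMg-LFD, from 0.98 for H2-DMa to 2.25 for H2-DMb1, where 24.6% of all genes were higher. All 6 were also higher in LowMg-HFD than in LowMg-LFD, with a median of 0.78 beside 12.4% of all genes higher, and 4 of 6 were higher in LowMg-HFD than in NormMg-LFD, beside 5.29%. The count in LowMg-HFD vs LowMg-LFD was 6 on leaving out any mouse. In LowMg-HFD relative to NormMg-HFD 5 of the 6 were lower, beside 12.9% of all genes. That count was 2 without LowMg-HFD replicate 3, 4 or 5, 1 without NormMg-HFD replicate 3, 6 without LowMg-LFD replicate 4, 4 on median centring and 3 on quantile normalisation.

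Markers of other cell types moved with these results. The 15 macrophage genes summed to 812 to 941 FPKM in NormMg-LFD, 635 to 1250.1 in LowMg-LFD, 2621 to 4135 in NormMg-HFD and 936 to 2321 in LowMg-HFD. All NormMg-HFD mice were above all mice of the other groups. Of the 15, 14 were higher in NormMg-HFD than in NormMg-LFD, with Cd163 lower by 0.56 (log2 fold change -0.56), and 14 fell in LowMg-HFD relative to NormMg-HFD, against 24.6% of all genes higher and 12.9% lower in these comparisons. In LowMg-HFD vs LowMg-LFD 8 of the 15 were higher and none lower, beside 12.4% of all genes higher. In LowMg-HFD vs NormMg-LFD 5 were higher and none lower, beside 5.29% of all genes higher. An interaction below 0 was called for 4 of the 15, where 1.25% of all genes had a called interaction in either direction. No macrophage marker was at 0 in all mice. The 15 T and natural killer cell genes, by contrast, were all below the filter, with sums of 17.4 to 54.9 FPKM over all mice. The 6 B cell genes were below it as well, with sums of 3.10 to 22.6 FPKM. The 9 dendritic cell genes summed to 26.8 to 35.8 FPKM in NormMg-LFD and to 64.9 to 101 FPKM in NormMg-HFD. Only 2 of the 9 passed the filter. In this comparison Itgax was called higher, at 3.91 (limma adjusted p = 2.12e-06), and Batf3 at 0.47 was not (adjusted p = 0.128). The 10 adipocyte genes had 1 higher and 7 lower in NormMg-HFD vs NormMg-LFD, where 24.6% of all genes were higher and 12.8% lower. In LowMg-HFD vs NormMg-HFD they had 6 higher and none lower (median 0.56), beside 5.58% of all genes higher and 12.9% lower. The 6 mesothelial genes summed to 33.7 to 101 FPKM in NormMg-LFD and to 9.47 to 22 FPKM in NormMg-HFD, without overlap, and the 1 that was tested, Krt19, was lower in this comparison (log2 fold change -1.86, limma adjusted p = 0.00278). Of 8 endothelial genes Kdr was lower (-0.41) and of 6 stromal progenitor genes Pdgfrb was higher (0.47), and the sums of both lists overlapped between these groups. In LowMg-HFD vs NormMg-HFD, Kdr was higher (0.54). The part of these shifts in the levels of the 8 genes was not tested, and in whole tissue more cells of a type and more RNA per cell cannot be told apart.

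**Figure D4:**
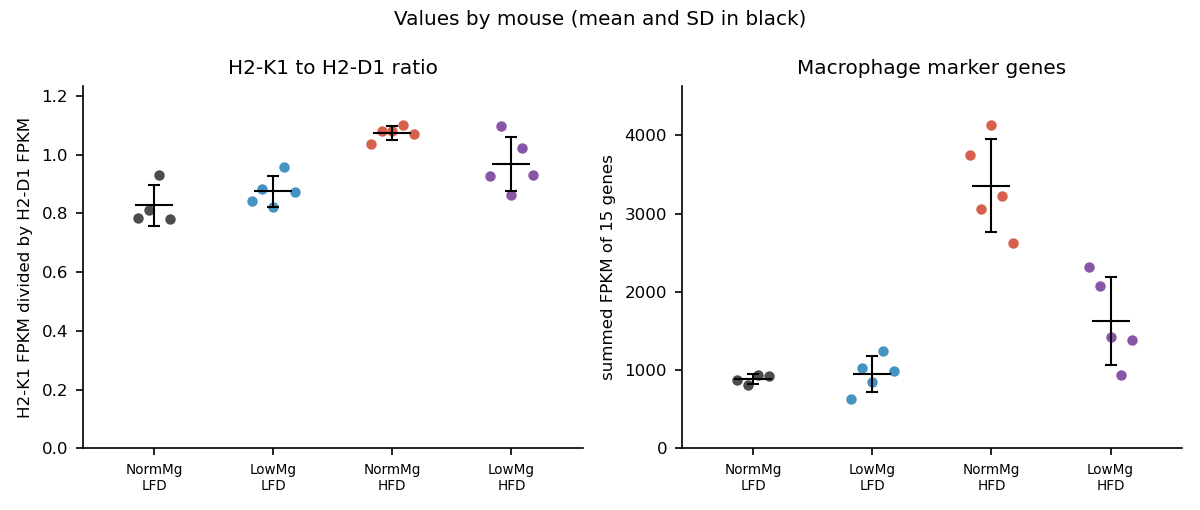
Left, FPKM of H2-K1 divided by that of H2-D1 in each mouse, and right, the summed FPKM of 15 macrophage marker genes in each mouse, both by diet group with mean and SD in black. The ratio was 1.04 to 1.10 in the NormMg-HFD mice and at most 0.959 in the LFD mice, and the macrophage sum was 2621 to 4135 FPKM in NormMg-HFD.

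The balance between the classical heavy chains also differed by diet. This ratio was chosen after its values had been seen and is given as a description. H2-K1 divided by H2-D1 was 0.828 ± 0.0692 (SD, n = 4) in NormMg-LFD, 0.876 ± 0.0522 (n = 5) in LowMg-LFD, 1.07 ± 0.0241 (n = 5) in NormMg-HFD and 0.968 ± 0.0925 (n = 5) in LowMg-HFD. H2-D1 had more FPKM than H2-K1 in every LFD mouse, and H2-K1 more than H2-D1 in every NormMg-HFD mouse. The LowMg-HFD mice were at 0.926, 1.10, 0.864, 1.02 and 0.930, on both sides. B2m divided by the sum of the 3 heavy chains had group means of 1.076 to 1.199 over the 4 diets, per transcript length. Reads shared between H2-K1 and H2-D1 can shift this ratio, and their part was not tested.

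Within diet groups, the genes of the route varied together to different degrees. For each of 28 pairs, deviations from the group mean of log2(FPKM + 1) were correlated over 19 mice, with a permutation p from 100000 reshufflings within groups, adjusted over the 28 pairs. H2-K1 and H2-D1 were the closest pair, with Pearson's r of 0.922 (permutation adjusted p = 0.0014) and Spearman's rho of 0.944 (permutation adjusted p = 0.00168), and r was 0.91 without the 2 mice farthest from the median of H2-K1. B2m and Tapbp had r = 0.813 (permutation adjusted p = 0.00182), rho = 0.821 and r = 0.733 without the 2 farthest mice. H2-D1 and B2m had r = 0.762 (permutation adjusted p = 0.0285), but rho = 0.602 did not pass (permutation adjusted p = 0.097), and r was 0.564 without the 2 farthest mice. H2-K1 and H2-T23 passed by rho, at 0.772 (permutation adjusted p = 0.042), and not by r. Nlrc5 passed with no other gene, and its r with B2m was -0.535 (permutation adjusted p = 0.124). The mice share library scaling, and H2-K1 and H2-D1 share some reads.

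**Figure D5:**
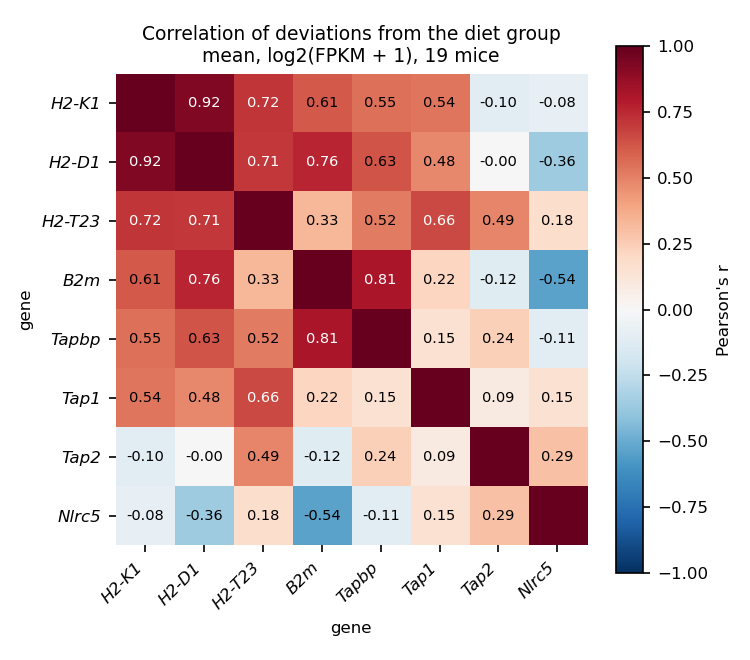
Pearson's r between the 8 genes for deviations from the diet group mean of log2(FPKM + 1) over 19 mice, with colour from -1 (blue) to 1 (red) and r printed in each cell. H2-K1 with H2-D1 (0.92) and B2m with Tapbp (0.81) are the highest cells, and B2m with Nlrc5 (-0.54) is the lowest.

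Outside the 8 genes, the 5 whose deviations from the diet group means were most like the mean deviation of the 8 were found among 8328 genes tested, over 19 mice. By Pearson's r these were Arhgap31 (0.888), Ssc5d (0.863), Samhd1 (0.857), Cd81 (0.853) and H2-Q7 (0.851), the last a non-classical heavy chain with close copies. The values carry no test, since they were the highest of all genes compared.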

How the data were processed

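Total RNA from snap-frozen eWAT was sequenced by the authors on an Illumina HiSeq as 50-base single-end reads, aligned with HISAT and Bowtie2 to GRCm38 (mm10) and quantified with RSEM 1.2.31; the deposited FPKM values, which the authors scaled for transcript length and mapped reads, were used. The authors also deposited, from their mapping, the count of clean reads per sample and the percent of reads mapped, used here only for depth. The strand setting is not given in the sources used here. Columns were matched to samples by their titles. From the FPKM values, log2(FPKM + 1) was computed here and fitted with limma 3.58.1 (R 4.3.3, intensity trend) with the 4 groups in 1 model over 19 mice. A gene was kept if its FPKM exceeded 8 in the mean and in at least 4 mice of 1 group (8336 of 24237 genes; 12 annotation fragments and 1 gene with a non-numeric value had been dropped). P values were adjusted by Benjamini-Hochberg over all tested genes, with a threshold of 0.05; 5 pairwise contrasts and the interaction were tested. The method was tested on simulated data. Precision rests on the spread among mice within the groups of 4 or 5, pooled over the 4 groups and moderated across genes by limma. The members and lists were chosen with earlier results of these data known. Named genes were the 8 members, up to 4 genes of each list with the largest change past the threshold, marker genes that bear on a cell type, and the 5 genes most alike; Cd163, Jak1, Tapbpl, Psmb9, Irf1 and Ifng were named outside this rule after their values were seen. Promoters came from RefSeq (GRCm38.p6). Some items of the lists and motifs are not reported here. The alternatives changed the pseudocount, filter, scaling, variance model, mice or blocking.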

Additional observations from a re-analysis of the deposited data

Results flagged for a closer look

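Of 32 sets of values tested, each 1 gene in 1 diet group, 1 held a mouse far from the others. Tap2 was at 45.04 FPKM in LowMg-HFD replicate 3, against 32.2 to 35.7 FPKM in the other 4 mice of the group. Its gap to the nearest mouse was 0.728 of the group's range, above Dixon's critical value of 0.71. Chance alone flags about 1 in 20 such sets. The exons of Tap2 overlap those of Gm15821 and Gm20496.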

How the results depend on the processing

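All 28 alternatives of the NormMg-HFD vs NormMg-LFD comparison called 5 of the 8 genes, and those of LowMg-LFD vs NormMg-LFD called 0. Leaving out 1 mouse at a time gave 0 to 3 calls for LowMg-HFD vs NormMg-HFD, 1 to 2 for LowMg-HFD vs LowMg-LFD, 0 to 3 for LowMg-HFD vs NormMg-LFD and 0 to 1 for the interaction. For LowMg-HFD vs NormMg-HFD the 1 call became 0 with a filter at FPKM over 1, with no filter, on median centring, on quantile normalisation, with only the groups compared, and in the 18 samples without LowMg-HFD replicate 4 with log2(FPKM + 1) over 3 as the filter. That last setting gave 2 calls for LowMg-HFD vs LowMg-LFD and 3 for LowMg-HFD vs NormMg-LFD. The labels do not name the mouse that the study left out, so these 18 samples need not be the study's own. In LowMg-HFD replicate 4 the exocrine pancreas genes summed to 45.3 FPKM, within the 24.5 to 51.2 of its group. Of 1336 values, 1264 kept direction and side of the threshold, 13 lost the call, 16 gained it and 43 changed sign; why was not tested.

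The values that changed sign were small and not called. On median centring, H2-D1 in LowMg-HFD vs LowMg-LFD was -0.057, Tap2 was 0.0066 in LowMg-HFD vs NormMg-HFD and -0.076 in NormMg-HFD vs NormMg-LFD. On quantile normalisation, Tap2 was 0.014 and -0.105 in these comparisons and B2m was -0.10 in LowMg-LFD vs NormMg-LFD. In the 18 samples, the interaction was -0.10 for Nlrc5 and 0.10 for Tap1, and in LowMg-HFD vs NormMg-LFD Tap1 was 0.12 and Tap2 0.015. Leaving out 1 mouse, LowMg-HFD vs LowMg-LFD ranged from -0.031 to 0.15 for H2-D1 and -0.16 to 0.094 for Nlrc5, LowMg-LFD vs NormMg-LFD from -0.034 to 0.14 for H2-T23, and LowMg-HFD vs NormMg-LFD from -0.15 to 0.12 for Tap1 and -0.11 to 0.018 for Tap2. NormMg-HFD vs NormMg-LFD ranged from -0.19 to 0.16 for Nlrc5 and -0.057 to 0.0698 for Tap2, and the interaction from -0.19 to 0.16 for Nlrc5 and -0.19 to 0.10 for Tap1.

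Over all genes, the 104 called for the interaction became 0 to 482 on leaving out a mouse, 35 in the 18 samples, 48 with the filter at 1, 2 with no filter, 24 with the pseudocount of 0.1, 245 on median centring, 347 on quantile normalisation, 67 without the intensity trend and 0 with the replicate block. LowMg-HFD vs NormMg-LFD (578) gave 198 to 809 on leaving out a mouse, 245 with no filter, 104 with only the groups compared and 380 with the replicate block. LowMg-HFD vs LowMg-LFD (1329) gave 800 to 1468 and, with only the groups compared, 665. LowMg-HFD vs NormMg-HFD (1542) gave 921 to 1644.

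Replicate numbers are shared by the groups but did not pair the mice: over 27 pairs with the same number, deviations correlated at -0.18 to 0.34 (median 0.003), 5 of them over 0.1, and 3 of 19 mice correlated best with their own number. With the replicate block, 5 genes were called in NormMg-HFD vs NormMg-LFD, 1 in LowMg-HFD vs NormMg-HFD (H2-K1, adjusted p = 0.0495), 1 in LowMg-HFD vs LowMg-LFD and 0 in the other comparisons. FPKM carry no read count per gene, so depth limits could not be set for Tap1 and Nlrc5, the lowest of the 8.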
